A study of Mus musculus with 40 samples.

Results

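The type I interferon response is described here by 47 genes, chosen by name from the genes known to be induced by type I interferon, and followed in RNA of CD11b+ cells from glioma-bearing and naïve mouse brains. Each of the 3 deposited tables lists 54513 genes, and all 47 members were found in each. At a mean of at least 1 RPKM (reads scaled to the exonic length of the gene and to the reads of the sample), 47 members of 9671 genes kept were measurable in GL261 gliomas at 21 DPI (days post-implantation), 47 of 9738 at 28 DPI and 45 of 9666 in U87-MG gliomas, where Ddx60 and Ifi203 were under that mean. The tables were normalized separately, so each comparison was made within 1 table.

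In the first experiment, C57BL/6 mice bore GL261 gliomas, a murine glioma line, implanted in the right striatum, and an osmotic pump delivered water (vehicle), 7aaRGD or 7aaRAE into the tumor until 21 DPI, with naïve mice as the reference and 3 samples in each of the 4 groups. 7aaRGD is a synthetic integrin-blocking peptide, and in 7aaRAE the RGD motif that integrins bind is changed to RAE, which makes it the control peptide. Both were given at 2 mg/ml. In the second experiment, mice with GL261 gliomas received vehicle (4 samples), 7aaRGD (4), vehicle with the anti-PD-1 antibody at 10 mg/kg (3) or 7aaRGD with anti-PD-1, called the combination (3), and were examined at 28 DPI. The GEO titles call these mice nude, whereas the methods of the study describe the GL261 experiments in immunocompetent C57BL/6 animals. Per the methods, groups without anti-PD-1 received a control IgG. In the third experiment, athymic Nude-Foxn1nu mice, which lack a functional thymus, bore human U87-MG gliomas and received vehicle, 7aaRGD or 7aaRAE until 21 DPI (3 samples each). All mice were males of 10 to 12 weeks. A sample pooled 2 animals at 21 DPI and was 1 mouse at 28 DPI, and the sort took every CD11b+ cell of the hemisphere, so microglia and infiltrating myeloid cells are mixed in each sample. Of 40 samples in the labels, 35 were analysed, and the 3 naïve samples of the third experiment, 1 anti-PD-1 sample and 1 combination sample were not analysed here.

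Type I interferons are secreted when cells sense nucleic acids of viral or damaged-cell origin, and they act on nearly all cells through the receptor IFNAR1/IFNAR2. The receptor's kinases JAK1 and TYK2 activate STAT proteins, and STAT2 and IRF9 are subunits of the transcription factor complex ISGF3 that results. ISGF3 binds the interferon-stimulated response element of its target genes, and among these targets are the sensors and transcription factors that start the response, so the response feeds itself. In the brain, microglia and infiltrating monocytes and macrophages are the cells best known for a strong response of this kind.

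The response element is built from repeats of GAAA with 2 bases between them. The RefSeq promoter windows (GRCm38.p6, 250 bases before to 50 after a gene's start) of the members were therefore searched for GAAA, any 2 bases and GAAA, on either strand (on the reverse strand TTTC, any 2 bases and TTTC), counting matches that overlap each other. Of the 47 members, 35 were in the table, and 21 of these (60%) held the element, against 689 of 17492 protein-coding genes (3.94%). With 3 repeats in a row, 4 of 35 (11.4%) held it, against 28 genes (0.160%). The stretches from 160 to 31 bases before the start of 5 members named throughout are shown to let the element be seen in genes that the results turn on, with the matches in capitals.

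Ifit1 (chr19:34640729-34640858, plus strand): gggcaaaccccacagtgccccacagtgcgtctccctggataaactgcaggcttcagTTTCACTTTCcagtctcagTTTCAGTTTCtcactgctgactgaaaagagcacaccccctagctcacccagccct
Ifit3 (chr19:34583369-34583498, plus strand): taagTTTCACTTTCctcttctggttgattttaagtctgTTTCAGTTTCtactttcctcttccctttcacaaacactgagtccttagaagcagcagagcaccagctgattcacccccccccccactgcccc
Isg15 (chr4:156200849-156200978, minus strand): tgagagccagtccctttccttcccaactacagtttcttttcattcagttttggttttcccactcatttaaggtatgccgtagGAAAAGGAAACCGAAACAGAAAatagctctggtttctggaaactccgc
Rsad2 (chr12:26456483-26456612, minus strand): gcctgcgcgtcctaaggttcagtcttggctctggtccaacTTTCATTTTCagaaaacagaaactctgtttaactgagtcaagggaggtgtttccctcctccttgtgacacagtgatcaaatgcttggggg
Bst2 (chr8:71537503-71537632, minus strand): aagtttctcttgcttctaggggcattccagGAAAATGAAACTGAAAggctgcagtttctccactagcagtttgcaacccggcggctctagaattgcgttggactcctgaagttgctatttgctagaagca

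The matches of Ifit1, Ifit3 and Rsad2 lie on the reverse strand, so they read as TTTC repeats. The 3 matches of Isg15 overlap and form a run of 4 repeats, and the 2 matches of Bst2 form a run of 3. Among the matched members without a match in this window were Irf7, Irf9, Oasl2, Ifit2, Cmpk2, Isg20 and Lgals3bp, and no match says only that these letters are not in the window. Dhx58, Ifi204, Ifi27l2a, Mx1, Mx2, Oas2, Parp14, Parp9, Rtp4, Tor3a, Usp18 and Zbp1 have no entry. Several members are neighbours in the genome, in clusters of Ifit genes on chromosome 19, of Oas and Oasl genes on chromosome 5, of Ifi200 genes on chromosome 1, and in the adjacent pair Rsad2 and Cmpk2 on chromosome 12. Reads of near-identical copies (Ifit3 and Ifit3b, Oas1a and Oas1g, the Ifi200 genes) may be split between them, so the level of each copy is uncertain.

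Across the series, 9328 to 9821 protein-coding genes per sample reached 1 RPKM, and the number of reads per sample is unknown because the tables hold no counts. The markers that define the sort were present, since Itgam, Ptprc, Csf1r, Aif1 and Cd68 each had a mean of at least 1 RPKM in every group. Cells of other types were also present in the sort in small amounts, and their marker levels are given beside the results that they accompanied. In bulk samples, fewer cells of a type and less RNA per cell cannot be told apart. Averaged over the members on the log2(RPKM + 1) scale, the level in the samples of naïve mice was 2.30 to 2.38, in vehicle samples of the same experiment 5.76 to 6.03, in vehicle samples at 28 DPI 4.44 to 4.71 and in vehicle samples of U87-MG gliomas 3.21 to 3.65. Levels are set side by side across the separately normalized tables without a test.

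**Figure D1:**
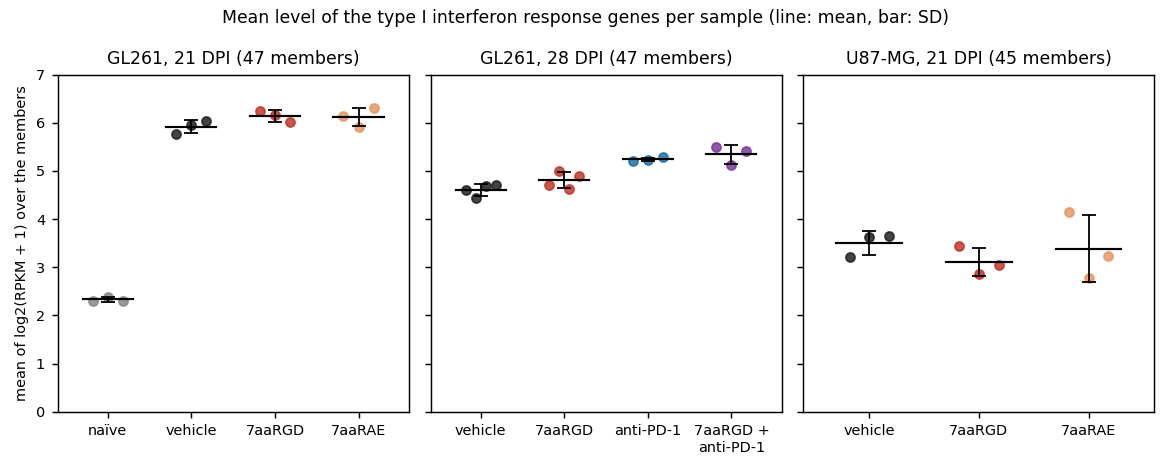
Mean of log2(RPKM + 1) over the members (y axis) in every sample (points) of the 3 experiments, with 1 panel per experiment, the group mean as a line and the SD as a bar. The naïve samples lie at 2.30 to 2.38, at 28 DPI the anti-PD-1 samples (5.20 to 5.28) and combination samples (5.13 to 5.50) lie above all vehicle samples (4.44 to 4.71), and in U87-MG gliomas the 3 7aaRAE samples spread from 2.77 to 4.14.

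The comparison of vehicle-treated GL261 gliomas with naïve brains asked how far the CD11b+ compartment of a growing glioma differs from that of the healthy brain. All 47 members were higher in the glioma, each past an adjusted p of 0.05 (limma, Benjamini-Hochberg over 9729 genes), where 34.6% of all genes tested were called higher. In all 47, the groups did not overlap, with every vehicle sample above every naïve sample, which was so for 35.6% of all genes. The filter of 1 RPKM used the mean over both groups. Members under 1 RPKM in every naïve sample (Ddx60, Ifi44, Mx2, Oas1g, Oas2, Oas3, Oasl1 and Rsad2) therefore entered only through their vehicle level. For such members a higher value in vehicle was favoured by the filter, so they add little to both counts. The median log2 difference was 3.59 on the log2(RPKM + 1) scale, against -0.14 over all genes, and the ratio of mean RPKM ran from 1.88 to 139-fold with a median of 23.2-fold. Rescaling the samples by the median of ratios moved the median of all genes up by 0.15, and the members exceeded the median of all genes by 3.73.

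Among the effectors of the response, Isg15, a ubiquitin-like protein that is secreted or attached to other proteins, had 6.73, 7.97 and 6.58 RPKM in naïve samples and 443, 549 and 602 RPKM in vehicle samples. Its log2 difference of 6.03 (SE 0.12, adjusted p = 7.57e-09) stood beside that of Usp18, which removes ISG15 from proteins and dampens IFNAR signaling, with 1.37, 2.28 and 1.71 RPKM against 52.9, 67.3 and 65.6 RPKM (log2 difference 4.50). The groups were far apart in both genes. Rsad2 (viperin), which makes a chain-terminating nucleotide, was at 0.788, 0.613 and 0.684 RPKM in naïve samples and at 62.1, 65.2 and 82.6 RPKM in vehicle samples, with a log2 difference of 5.38 (SE 0.11). Ifit1, which binds foreign RNA, went from 0.890, 1.27 and 0.810 RPKM to 52.5, 57.3 and 64.4 RPKM (log2 difference 4.89), and its neighbour Ifit3 from 4.87, 5.94 and 4.69 RPKM to 143, 159 and 180.3 RPKM (4.71). The Ifit genes were thus near or under 6 RPKM in naïve samples and well above it in every vehicle sample.

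In the OAS family, whose active members make the second messenger that switches on RNase L, the log2 differences ran from 3.09 to 5.71. Oasl2, an OAS-like protein, had 1.38, 2.11 and 1.72 RPKM in naïve samples and 72.7, 94.0 and 98.1 RPKM in vehicle samples, with a log2 difference of 5.02 (SE 0.13). Oasl1, which restrains Irf7 translation, had the largest ratio of means of all members, 139-fold. Mx1, an antiviral GTPase, was at 1.11, 0.778 and 0.912 RPKM against 20.4, 20.7 and 23.8 RPKM (log2 difference 3.55). Every vehicle sample exceeded every naïve sample in each of these genes.

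Among the sensors, Zbp1, which binds left-handed nucleic acids and can trigger necroptosis, had 1.12, 0.937 and 1.41 RPKM in naïve samples and 105, 149 and 147 RPKM in vehicle samples (log2 difference 5.95, SE 0.14, adjusted p = 1.53e-08). The cytosolic RNA sensor Ifih1 (MDA5) changed less, from 5.27, 4.74 and 5.51 RPKM to 28.6, 31.4 and 34.8 RPKM (2.40). Eif2ak2 (PKR), the kinase that stops translation when it binds double-stranded RNA, had 5.63, 6.07 and 5.87 RPKM against 19.7, 20.1 and 22.4 RPKM (1.66). These sensors were already measurable in naïve samples, whereas Zbp1 was close to 1 RPKM there.

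The 3 transcription factors spanned the whole list. Irf7, the amplifier of type I interferon production, had the largest log2 difference of the 47 members, 6.57 (SE 0.11, adjusted p = 4.36e-09), with 2.72, 2.63 and 2.37 RPKM in naïve samples and 283, 378 and 365 RPKM in vehicle samples. Irf9, the DNA-binding subunit of ISGF3, had the smallest, 0.87 (SE 0.06), with 14.4, 14.8 and 15.4 RPKM against 27.0, 26.9 and 29.9 RPKM. Stat2, its partner in ISGF3, lay between them, with 5.97, 6.83 and 6.89 RPKM against 53.4, 68.7 and 61.6 RPKM (3.04). In naïve samples Stat2 and Irf9 were above Irf7 in RPKM, and in vehicle samples they were below it.

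Of the membrane and secreted proteins, Ifitm3, which blocks viral entry at endosomes, had the highest RPKM of all named members in the glioma, 1272, 1496 and 1769 RPKM against 34.6, 33.8 and 35.4 RPKM in naïve samples (log2 difference 5.40). Ifi27l2a, a small protein of the ISG12 family, rose from 15.0, 20.2 and 15.2 RPKM to 448, 525 and 669 RPKM (4.94). Bst2 (tetherin), which holds budding virions at the membrane, rose from 65.3, 64.9 and 62.2 RPKM to 334, 342 and 396 RPKM (2.45). Lgals3bp, a secreted glycoprotein, rose from 97.2, 103 and 89.0 RPKM to 642, 645 and 571 RPKM (2.67). Bst2 and Lgals3bp were the most abundant named members in naïve samples.

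By role, the medians of the log2 differences were 4.94 in the IFI200 family, whose proteins bind DNA, 4.83 in the OAS family and 4.80 in the IFIT family, and they were lowest in the sensors (2.07) and in the PARP and DTX3L group (1.82), which modifies proteins with ADP-ribose and ubiquitin. Of the IFI200 family, Ifi204 had 2.66, 3.51 and 3.16 RPKM in naïve samples and 149, 162 and 161 RPKM in vehicle samples (5.27), and Ifi211 had 0.766, 1.22 and 0.904 RPKM against 99.5, 104 and 116 RPKM (5.78). Among the members of smaller difference, Tor3a, an ATPase of the endoplasmic reticulum, had 27.9, 29.4 and 26.9 RPKM against 71.4, 76.4 and 75.1 RPKM (1.37) and Slfn8 17.2, 18.7 and 19.3 RPKM against 48.2, 49.8 and 55.1 RPKM (1.42), while Mx2 was low in both groups, with 0.905, 0.623 and 0.962 RPKM against 3.73, 3.99 and 3.52 RPKM (1.38). Cmpk2 had 0.966, 1.07 and 0.783 RPKM against 26.2, 24.3 and 29.7 RPKM (3.84). Ifi44 was at 0.106 RPKM or less in each naïve sample and at 4.21, 5.36 and 5.93 RPKM in vehicle samples (2.53), where the log2(RPKM + 1) scale understates the ratio of so low a level.

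The same samples differed in their cell types. All 10 microglia markers fell (summed level 17015 to 17694 RPKM in naïve and 1425 to 2066 RPKM in vehicle samples), and all 8 monocyte markers rose (29.9 to 36.3 RPKM against 1430 to 2097 RPKM). Their part in the difference of the interferon genes was not tested. No microglia marker had a group mean under 0.1 RPKM, whereas the monocyte marker Vcan did in naïve samples. The p-values here and in the other comparisons measure the spread between these samples and treat them as independent. The deviations of samples from their group means varied in 7 of 8 possible directions in this experiment. At 28 DPI they varied in 9 of 10 and in U87-MG gliomas in 6 of 6. Where a direction is missing, the samples may not be fully independent and the p-values may be too small. The cause was not tested.

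The next comparison asked whether the peptides changed the response within the glioma at 21 DPI. With 7aaRGD, 44 of 47 members had a log2 difference above 0 against vehicle (57.7% of 9442 genes did), with a median of 0.21 and a median over all genes of 0.02. None passed an adjusted p of 0.05, as 0.138% of all genes did in that direction. At an unadjusted p under 0.05, 12 members were higher, beside 9.32% of all genes. Groups did not overlap in 14 members, all higher (12.5% of all genes were), namely Bst2, Cmpk2, Ddx58, Ifi35, Ifit3, Ifit3b, Isg15, Mx1, Mx2, Oas1a, Oasl1, Rsad2, Tor3a and Usp18. Without vehicle sample 1, the lowest of the 3 vehicle samples, 36 members were above 0 and the median was 0.13.

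The 3 largest differences were those of Rsad2, Ifit3b and Cmpk2. Rsad2 had 62.1, 65.2 and 82.6 RPKM with vehicle and 115, 115 and 88.7 RPKM with 7aaRGD, a log2 difference of 0.60 (SE 0.17, adjusted p = 0.229). Ifit3b had 22.5, 19.7 and 26.7 RPKM against 38.0, 31.6 and 34.7 RPKM (0.59, SE 0.17, adjusted p = 0.219), and Cmpk2, a mitochondrial nucleotide kinase next to Rsad2 in the genome, had 26.2, 24.3 and 29.7 RPKM against 43.1, 46.7 and 32.1 RPKM (0.57, SE 0.17, adjusted p = 0.236). In each of them every 7aaRGD sample lay above every vehicle sample, and sample 3 of the 7aaRGD group came closest to the vehicle samples in Rsad2 and Cmpk2. Isg15 had 443, 549 and 602 RPKM against 769, 666 and 653 RPKM (0.40), Mx1 20.4, 20.7 and 23.8 RPKM against 34.1, 33.1 and 24.9 RPKM (0.47), and Bst2 334, 342 and 396 RPKM against 472, 417 and 448 RPKM (0.32). The 3 transcription factors were near 0, at 0.06 for Irf7, 0.09 for Stat2 and 0.10 for Irf9. Irf7 had 283, 378 and 365 RPKM with vehicle and 383, 305 and 378 RPKM with 7aaRGD, which overlap.

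The control peptide gave values of the same size. With 7aaRAE, 46 of 47 members were above 0 against the same vehicle samples (52% of all genes), the median was 0.21, and none passed the adjusted threshold (0% of all genes, smallest adjusted p of a member 0.717 by limma). At an unadjusted p under 0.05, 7 members were higher beside 3.33% of all genes. In 7 members the groups did not overlap, all higher (6.13% of all genes were), namely Eif2ak2, Ifi203, Ifit1, Mx2, Parp14, Slfn5 and Slfn8. Rsad2 had 103, 74.3 and 114 RPKM (log2 difference 0.45, SE 0.17), Cmpk2 37.7, 29.0 and 44.9 RPKM (0.45) and Mx2, the neighbour of Mx1 and annotated as a polymorphic pseudogene, 4.74, 4.42 and 7.42 RPKM against 3.73, 3.99 and 3.52 RPKM (0.43). In Rsad2 and Cmpk2 the second 7aaRAE sample fell among the vehicle samples and the other two lay above them. Taking both peptides together against vehicle, no member passed (0% of all genes, smallest adjusted p 0.304), and 15 members were higher at an unadjusted p under 0.05 beside 7.65% of all genes. Without vehicle sample 1, the median with 7aaRAE was 0.11.

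Since 7aaRGD and 7aaRAE differ in the integrin-binding motif, they were compared directly at the same dose and time. None of the 47 members differed at an adjusted p under 0.05 (0% of all genes) or at an unadjusted p under 0.05 (5.52%), 24 were higher with 7aaRGD and 23 with 7aaRAE (58.2% of all genes were above 0), and the median log2 difference was 0.005. The largest differences were those of Isg20, a nuclease of RNA (0.21, 95% interval -0.21 to 0.63), Ifit3b (0.16, -0.21 to 0.54) and Rsad2 (0.14, -0.25 to 0.53), each with an adjusted p of 0.992 by limma. The 95% intervals of the 47 members lay between -0.49 and 0.63, so each interval held 0 and none reached a change of 1 on the log2 scale in either direction. The count above 0 rested on single samples, being 5 without 7aaRAE sample 2 (median -0.086) and 42 without 7aaRAE sample 3 (median 0.099). Both peptides were compared with the same 3 vehicle samples.

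**Figure D2:**
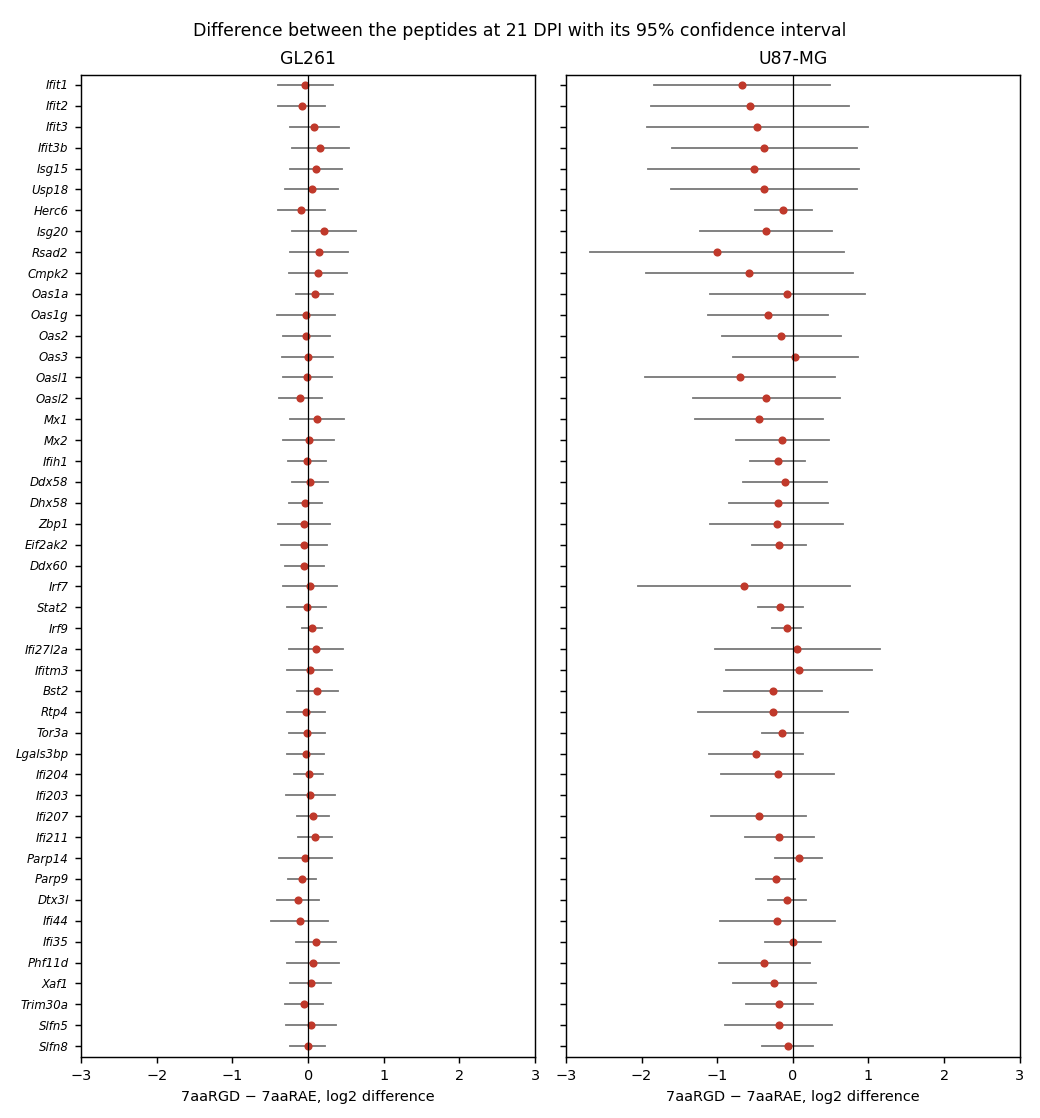
Log2 difference between the 7aaRGD and 7aaRAE groups on the log2(RPKM + 1) scale (x axis, points) with its 95% confidence interval (lines) for each member (y axis), in GL261 gliomas (47 members) and U87-MG gliomas (45 members). In GL261 gliomas the intervals lie between -0.49 and 0.63 and in U87-MG gliomas between -2.68 and 1.15.

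Marker levels beside these values were as follows. With 7aaRGD, all 10 microglia markers were above 0 against vehicle, with a median log2 difference of 0.41 and a summed level of 2127 to 2835 RPKM against 1425 to 2066 RPKM, and all 6 NK cell markers tested were above 0 (median 0.73, summed level of the 8 listed markers 26.8 to 60.6 RPKM against 12.4 to 28.4 RPKM). The 4 oligodendroglial or tumor markers tested were above 0 with a median of 0.89, and the 6 listed summed to 23.2 to 33.1 RPKM against 13.4 to 20.6 RPKM. No marker of these lists passed the adjusted threshold. With 7aaRAE the 3 medians were 0.22, 0.11 and 0.25. The 8 monocyte markers summed to 1430 to 2097 RPKM with vehicle, to less with 7aaRGD (1230 to 1418 RPKM, not overlapping) and to 1216 to 1453 RPKM with 7aaRAE. The 8 dendritic cell markers summed to 243 to 292 RPKM with vehicle, to more with 7aaRGD (329 to 356 RPKM, not overlapping) and to 261 to 373 RPKM with 7aaRAE. Their part in the interferon values was not tested.

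At 28 DPI the study asked what 7aaRGD, anti-PD-1 and their combination do to the myeloid compartment. With 7aaRGD alone, all 47 members had a log2 difference above 0 against vehicle (54.4% of 9738 genes did), with a median of 0.20, while none passed the adjusted threshold (0.123% of all genes). At an unadjusted p under 0.05, 10 members were higher beside 8.03% of all genes. The groups did not overlap in 4 members, all higher (3.96% of all genes were), namely Ifitm3, Oas3, Phf11d and Tor3a. The count above 0 was 40 without 7aaRGD sample 2 and at least 43 without any other 1 sample, and the median ranged from 0.11 to 0.29. The largest difference was that of Isg20, with 3.73, 5.26, 5.42 and 3.85 RPKM against 5.24, 5.63, 7.17 and 11.0 RPKM (0.53, SE 0.22, adjusted p = 0.287), followed by Oas2 with 10.4, 9.08, 13.8 and 10.4 RPKM against 15.8, 14.3, 13.2 and 14.5 RPKM (0.39, SE 0.13, adjusted p = 0.182) and Oas3 with 14.5, 13.5, 15.1 and 17.6 RPKM against 20.1, 20.3, 21.7 and 18.2 RPKM (0.38, SE 0.11, adjusted p = 0.141). In Oas3 every 7aaRGD sample exceeded every vehicle sample, and in Isg20 and Oas2 the groups overlapped. Isg15 was the member nearest to no difference (0.03), with 77.1, 55.3, 87.3 and 70.2 RPKM against 67.8, 88.7, 45.3 and 104 RPKM, and the third 7aaRGD sample was the lowest of all 8.

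With anti-PD-1, 40 of 47 members were higher than with vehicle past an adjusted p of 0.05 and none was lower (10.8% of all genes were called higher). In 42 members the groups did not overlap and anti-PD-1 was higher (15.4% of all genes). The median log2 difference was 0.63, against -0.005 over all genes, and the ratio of mean RPKM had a median of 1.58-fold. The members that did not pass were Ifi204, Ifi207, Ifit3b, Irf9, Lgals3bp, Parp9 and Rsad2. Without vehicle sample 2, which had the lowest mean of the members in its group, 28 members passed, and without any other 1 sample at most 39.

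The members with the largest differences in mm10 (GENCODE M21) are Zbp1 (chr2:173206612-173218923, minus strand), Oasl2 (chr5:114896936-114912234, plus strand) and Isg15 (chr4:156199424-156200818, minus strand). Zbp1 had the largest difference, with 28.2, 27.9, 42.5 and 34.4 RPKM with vehicle and 74.0, 81.9 and 86.04 RPKM with anti-PD-1 (log2 difference 1.27, SE 0.17, adjusted p = 0.000311). Oasl2 had 21.3, 20.7, 29.0 and 27.8 RPKM against 49.1, 69.0 and 55.6 RPKM (1.198, SE 0.19, adjusted p = 0.00101). Isg15 had 77.1, 55.3, 87.3 and 70.2 RPKM against 162, 159.6 and 139 RPKM (1.09, SE 0.24, adjusted p = 0.00591). In all 3 genes every anti-PD-1 sample was above every vehicle sample. Isg20 (1.09), Oas3 (1.052), Oas2 (0.98), Usp18 (0.88), Ifit1 (0.84), Trim30a (0.84), a brake on Toll-like receptor signaling, and Herc6 (0.83), the ligase that attaches ISG15, followed. Ifit1 had 11.999, 7.50, 11.3 and 11.6 RPKM against 23.0, 20.6 and 15.7 RPKM, and its adjusted p of 0.0234 rose to 0.0642 without vehicle sample 2, the lowest of the 4. The 6 genes of the OAS family, the 3 of the ISG15 system, the 6 sensors, both Mx genes and the 7 members of no other role, among them Trim30a, Ifi44 and Slfn5, passed in full.

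The remaining roles passed in part. Of the IFIT family 3 of 4 rose, of the membrane and secreted proteins 5 of 6, of the transcription factors, the nucleotide and RNA enzymes and the PARP and DTX3L group 2 of 3 each, and of the IFI200 family 2 of 4. Stat2 had 25.5, 24.5, 33.5 and 31.5 RPKM with vehicle and 44.2, 51.2 and 52.9 RPKM with anti-PD-1 (0.77), and Irf7 had 103, 110.5, 99.9 and 99.6 RPKM against 152, 139.5 and 149 RPKM (0.51), in neither case with an overlap. Irf9 had 17.4, 17.9, 21.0 and 20.8 RPKM against 22.4, 20.3 and 21.2 RPKM (0.14, adjusted p = 0.260 by limma), which overlap. Rsad2 had 16.2, 9.96, 9.37 and 12.9 RPKM against 17.96, 14.3 and 15.6 RPKM (0.40), and Lgals3bp 825, 921, 575 and 786 RPKM against 547, 657 and 834 RPKM (-0.19), both overlapping.

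Among the effectors and membrane proteins, Usp18 had 13.3, 7.90, 10.8 and 11.3 RPKM with vehicle and 22.2, 19.7 and 19.5 RPKM with anti-PD-1 (0.88). Ifit3 had 48.9, 37.6, 46.2 and 47.2 RPKM against 62.4, 64.1 and 71.7 RPKM (0.55), and Mx1 14.0, 11.6, 13.3 and 14.6 RPKM against 25.5, 17.8 and 25.6 RPKM (0.73). In each of the 3 genes vehicle sample 2 lay below the other vehicle samples. Ifitm3 had 343, 326, 375 and 360.2 RPKM against 799.8, 588 and 480.0 RPKM (0.80), Ifi27l2a 159, 184, 210.5 and 175 RPKM against 269, 292 and 300.4 RPKM (0.66), and Bst2 243, 243, 222 and 229.8 RPKM against 306, 316 and 307 RPKM (0.40). Of the sensors, Eif2ak2 had 12.98, 14.3, 16.7 and 17.9 RPKM against 24.2, 28.5 and 28.4 RPKM (0.77), Ddx58 (RIG-I), which senses viral RNA ends, 9.32, 8.21, 9.71 and 10.2 RPKM against 15.97, 19.1 and 16.5 RPKM (0.81), and Ifih1 14.4, 13.7, 15.7 and 16.1 RPKM against 18.4, 18.8 and 20.0 RPKM (0.33). The groups did not overlap in these genes.

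With the combination, 41 members were higher than with vehicle past the adjusted threshold, with no member lower (17.5% of all genes were called higher). In 36 members the groups did not overlap and the combination was higher (20% of all genes). The median was 0.70 with a median ratio of 1.66-fold. Oasl2 had 77.2, 68.4 and 66.4 RPKM (log2 difference 1.49, SE 0.19, adjusted p = 5.72e-05), Zbp1 111, 73.0 and 100.3 RPKM (1.48, SE 0.17, adjusted p = 2.16e-05) and Oas3 45.1, 31.1 and 43.0 RPKM (1.32, SE 0.12, adjusted p = 4.89e-06). Isg15 had 209, 137 and 185 RPKM (1.27). The second combination sample was the lowest of the 3 in Oas3 and Isg15 and still lay above all 4 vehicle samples. Ifi44 (1.22), Usp18 (1.18), Parp14 (1.16), an ADP-ribosyltransferase, Ifitm3 (1.16), Ifit1 (1.12) and Herc6 (1.12) completed the 10 largest differences. Ifi204, Ifi207, Ddx60, Irf9, Lgals3bp and Rsad2 did not pass. Ifi207, a DNA-binding protein of the IFI200 family, was the 1 member whose combination samples all lay below the vehicle samples, with 72.2, 69.0 and 69.8 RPKM against 78.0, 75.3, 100.4 and 108 RPKM (-0.34, SE 0.15, adjusted p = 0.0722).

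By role, the medians with the combination were 1.18 for the ISG15 system, 0.76 for the PARP and DTX3L group and 0.74 for the IFIT family, in each of which all members passed, and 0.43 for the IFI200 family, in which 2 of 4 passed. Usp18 had 28.8, 21.7 and 26.1 RPKM, Ifit1 28.9, 19.6 and 24.3 RPKM and Ifit3 79.8, 56.4 and 82.3 RPKM with the combination. Irf7 had 191, 118 and 187 RPKM (0.64), Stat2 64.3, 49.0 and 58.4 RPKM (0.97) and Bst2 341, 302 and 342 RPKM (0.48). In each of these the second combination sample was the lowest of the 3 and was above all vehicle samples. Mx1 had 27.5, 14.3 and 22.9 RPKM (0.61), and its second sample lay among the vehicle samples. Lgals3bp had 668, 632 and 760.3 RPKM (-0.16, adjusted p = 0.444 by limma), within the range of vehicle.

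**Figure D3:**
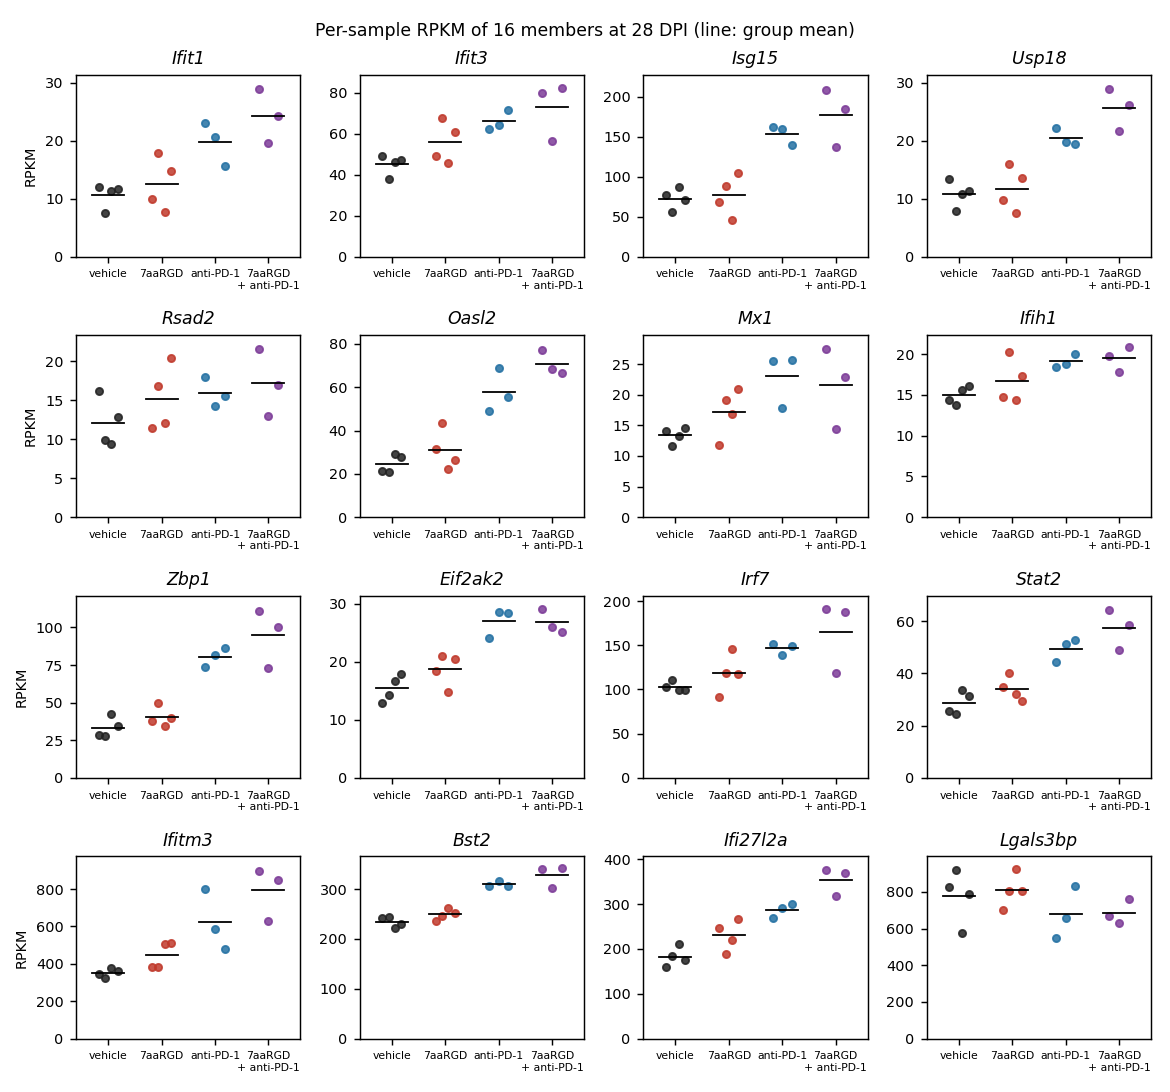
RPKM (y axes, from 0) of 16 members in each sample at 28 DPI (points), by group, with the group mean as a line. In Zbp1, Oasl2 and Isg15 all anti-PD-1 and combination samples lie above all vehicle samples, and in Lgals3bp the 4 groups overlap.

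Whether the peptide added to anti-PD-1 was tested directly. Between the combination and anti-PD-1, no member passed the adjusted threshold (0.0411% of all genes did, smallest adjusted p of a member 0.246), 6 were higher at an unadjusted p under 0.05 beside 3.96% of all genes, and 38 of 47 were above 0 beside 38.9% of all genes. The median log2 difference was 0.09 against -0.04 over all genes, and the 95% intervals of the members lay between -0.63 and 0.84. Ifi44 had 3.68, 5.42 and 4.89 RPKM with anti-PD-1 and 6.07, 5.67 and 8.06 RPKM with the combination (0.42, SE 0.18, adjusted p = 0.281). Ifitm3 had 799.8, 588 and 480.0 RPKM against 899, 628 and 849 RPKM (0.36, adjusted p = 0.374), and Parp14 43.0, 37.1 and 35.3 RPKM against 51.8, 46.6 and 48.0 RPKM (0.34, adjusted p = 0.273). The groups did not overlap in Ifi44 and Parp14 and overlapped in Ifitm3. The median was 0.24 without combination sample 2 and 0.02 without combination sample 1.

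The interaction of the 2 treatments, which is the difference of the 7aaRGD effect with and without anti-PD-1, was not past the adjusted threshold in any member (0% of all genes, smallest adjusted p of a member 0.588 by limma). Its median was -0.05 over the members and -0.06 over all genes, 13 members were above 0 (35.9% of all genes), and 2 were lower at an unadjusted p under 0.05 (5.84%), Oas2 with -0.50 (SE 0.19) and Oas1g with -0.40 (SE 0.19). These values had no stable direction, with 6 members above 0 and a median of -0.13 without combination sample 1, 31 and 0.04 without combination sample 2, and a median of 0.018 after scaling by the median of ratios. Against 7aaRGD alone, the combination was higher in 31 members past the adjusted threshold (13% of all genes) and lower in 1 member, Ifi207 with -0.47 (SE 0.15, adjusted p = 0.0224 by limma), beside 23.5% of all genes. The median of that difference was 0.49 and Isg15 led it with 1.24 (SE 0.24). In the order of group means, 37 of 47 members went from vehicle through 7aaRGD and anti-PD-1 to the combination, and vehicle was the lowest group for 45 members. The share of all genes in this order was not counted, so these counts do not set the members apart from other genes. Neighbours in this order were not separated past the adjusted threshold between vehicle and 7aaRGD or between anti-PD-1 and the combination, 7aaRGD against anti-PD-1 was not tested, and these comparisons share their samples.

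Marker levels of other cell types also differed between these groups at 28 DPI. The 8 monocyte markers summed to 147.5 to 324 RPKM with vehicle, 366 to 901 RPKM with anti-PD-1 and 363 to 563 RPKM with the combination, with 6 of 8 called higher in each comparison with vehicle. The 8 NK cell markers summed to 2.77 to 12.4 RPKM with vehicle, to 55.8, 73.2 and 3.19 RPKM in the anti-PD-1 samples and to 29.2 to 90.5 RPKM with the combination, and 5 of the 6 tested rose with the combination while none was called with anti-PD-1. T cell markers summed to 1.06 to 1.88 RPKM with vehicle and to no more than 5.84 RPKM in any sample at 28 DPI, with Cd3e, Cd3d, Cd3g and Cd8a under a mean of 0.1 RPKM in the vehicle group. The mean of the interferon genes in these anti-PD-1 samples was 5.20, 5.23 and 5.28 on the log2(RPKM + 1) scale, and Ifng was at 0.00213 RPKM in the third. Plasmacytoid dendritic cell markers summed to 3.43 to 5.40 RPKM with vehicle, 6.20 to 8.74 RPKM with anti-PD-1 and 5.18 to 6.64 RPKM with the combination. Of these 6 markers, 1 reached a mean of 1 RPKM with vehicle, 2 with anti-PD-1 and 2 with the combination. Ly6d, Ccr9, Spib and Klk1 were under a mean of 0.1 RPKM with vehicle. Oligodendroglial or tumor markers summed to 26.2 to 40.2 RPKM, 15.9 to 23.9 RPKM and 16.9 to 18.5 RPKM, with Olig1, Olig2 and Sox10 called lower in both comparisons. Of the 4 dendritic cell markers tested, Ccr7, Fscn1 and Cd209a were called higher in both comparisons. Itgax was called lower with the combination. The 8 listed summed to 205 to 259 RPKM with vehicle, 190 to 258 RPKM with anti-PD-1 and 171 to 225 RPKM with the combination. These ranges overlap. Of the endothelial markers Kdr and Flt1 were called higher in both comparisons. Microglia markers were called higher in 2 of 10 with anti-PD-1 and in 6 of 10 with the combination. With 7aaRGD alone all 10 microglia and all 8 monocyte markers were above 0 (54.4% of all genes), with 1 microglia and 0 monocyte markers called. Of all genes, 10.8% were called higher with anti-PD-1, 17.5% with the combination and 0.123% with 7aaRGD. Genes called in either direction numbered 2246 of 9738 with anti-PD-1, 1055 of them higher, and 4216 with the combination, 1708 of them higher. The part of any of these cell types, and of Ifng, in the interferon values was not tested.

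**Figure D4:**
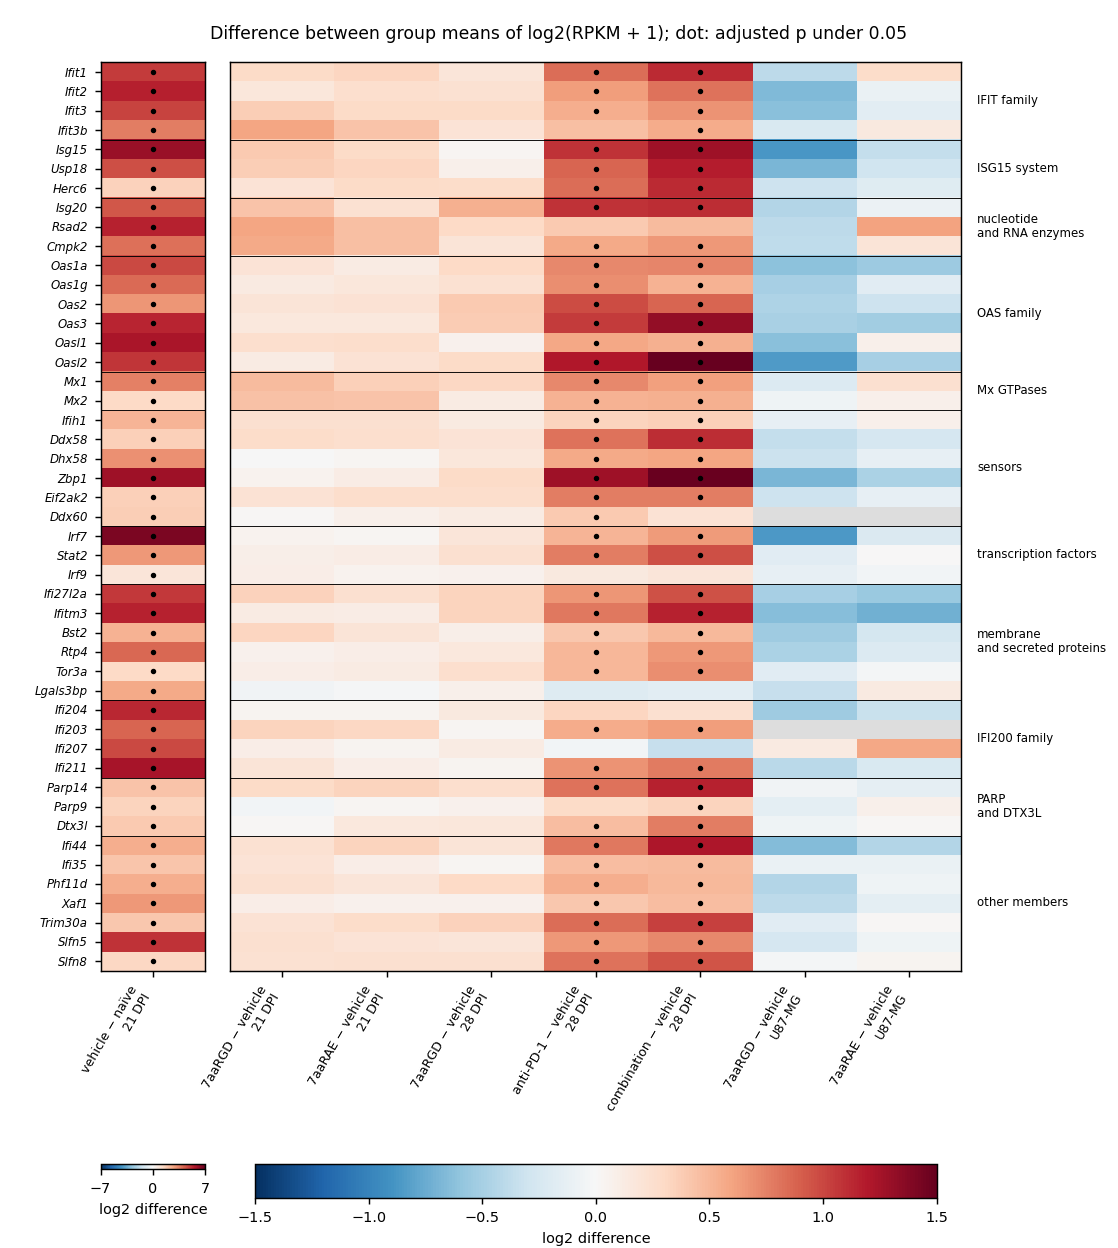
Log2 difference between group means on the log2(RPKM + 1) scale (colour, with separate scales for the comparison with naïve mice and for the others) of each member (rows, grouped by role) in 8 comparisons (columns), where a dot marks an adjusted p under 0.05 and grey marks a member under 1 RPKM. Dots mark 47 members for vehicle against naïve, 40 for anti-PD-1 and 41 for the combination, and none for the peptides alone.

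In U87-MG gliomas of nude mice the same peptides were compared. The samples are numbered here by the order of the columns, which only names them, since the header gives the 3 columns of a group 1 name. The third of each group had 3.61% to 4.32% of values under the added constant and the other 6 had 7.77% to 8.78%, and the mean of the members was 3.65 (vehicle), 3.04 (7aaRGD) and 3.24 (7aaRAE) in the former and 3.21 and 3.63, 3.43 and 2.85, and 4.14 and 2.77 in the latter. No member passed the adjusted threshold in either direction with 7aaRGD (0% of all genes), none passed an unadjusted p under 0.05 (3.77% of all genes), and 1 of 45 members, Ifi207, was above 0 (49.2% of 9666 genes), with a median log2 difference of -0.39. In 5 members, Bst2, Ifi204, Oasl2, Stat2 and Zbp1, all 7aaRGD samples lay below all vehicle samples (6.39% of all genes). Isg15 had 20.4, 32.0 and 31.2 RPKM with vehicle and 25.6, 8.28 and 13.9 RPKM with 7aaRGD (-0.88, SE 0.62, adjusted p = 0.941), Irf7 had 9.997, 22.7 and 18.8 RPKM against 15.0, 4.99 and 8.01 RPKM (-0.86, SE 0.62), and Oasl2 had 5.77, 8.32 and 7.48 RPKM against 5.36, 2.11 and 3.597 RPKM (-0.85, SE 0.43). In Isg15 and Irf7 the first 7aaRGD sample lay among the vehicle samples and the other two below them. The median of the members stayed between -0.57 and -0.24 when 1 sample was left out.

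Of the members apart from vehicle in all 3 7aaRGD samples, Zbp1 had 9.04, 10.9 and 10.9 RPKM with vehicle and 8.59, 4.16 and 5.85 RPKM with 7aaRGD (-0.69), Bst2 73.1, 85.7 and 83.9 RPKM against 71.8, 47.1 and 51.0 RPKM (-0.53) and Stat2 14.6, 14.7 and 14.4 RPKM against 13.2, 13.3 and 12.2 RPKM (-0.16). The first 7aaRGD sample lay just below the lowest vehicle sample in Zbp1 and Bst2, and both groups were narrow in Stat2. Ifitm3 had 126, 181 and 164 RPKM against 140.4, 57.3 and 123 RPKM (-0.63) and Ifi27l2a 86.97, 157 and 137 RPKM against 105, 61.3 and 102 RPKM (-0.50), which overlap. The 8 NK cell markers summed to 8.78 to 25.0 RPKM with vehicle, 1.77 to 8.62 RPKM with 7aaRGD and 0.486 to 2.45 RPKM with 7aaRAE, and the 8 monocyte markers to 88.2 to 95.2 RPKM, 73.6 to 131 RPKM and 42.2 to 72.7 RPKM. Their part in the interferon values was not tested.

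With 7aaRAE the values turned on single samples. Rsad2 had 31.4, 1.74 and 3.64 RPKM against 2.52, 4.38 and 5.14 RPKM with vehicle, Ifit1 17.7, 2.602 and 4.17 RPKM against 3.501, 5.56 and 5.61 RPKM, and Isg15 60.1, 8.3998 and 17.9 RPKM. The first 7aaRAE sample was above all vehicle samples in these 3 genes and the other two were below the vehicle mean. The summed plasmacytoid dendritic cell markers of the 3 7aaRAE samples were 33.0, 8.27 and 23.2 RPKM, beside a mean of the members of 4.14, 2.77 and 3.24. In vehicle samples they were 15.98, 41.4 and 19.4 RPKM beside 3.21, 3.63 and 3.65, and with 7aaRGD 25.5, 7.84 and 17.6 RPKM beside 3.43, 2.85 and 3.04. The 2 orders matched in both peptide groups and not in the vehicle group. The same held for the summed microglia, dendritic cell and sort markers, so the match was not particular to plasmacytoid dendritic cell markers. The microglia markers summed to 11429, 6834 and 9242 RPKM with 7aaRGD and to 9462, 7591 and 8666 RPKM with 7aaRAE. Of the 6 plasmacytoid dendritic cell markers only 1 reached a mean of 1 RPKM in each group, so their sums rest largely on 1 gene. Ly6d, Ccr9 and Klk1 were under a mean of 0.1 RPKM in each group, and Spib was with 7aaRAE. The summed NK cell markers of the 7aaRAE samples were 2.45, 1.03 and 0.486 RPKM. The part of any of these cell types in the values was not tested. Against vehicle, no member passed (0.0103% of all genes) at the adjusted threshold or at an unadjusted p under 0.05 (7.72%), 15 of 45 were above 0 (49.1%) and the median was -0.13. The largest differences were those of Ifitm3 (-0.72, SE 0.43), Rsad2 (0.61, SE 0.74) and Ifi207 (0.59, SE 0.28). Without the first 7aaRAE sample the median was -0.44 and 1 member was above 0, and without the second the median was 0.15 and 31 were above 0. Taking both peptides together, no member passed an adjusted (0.0103% of all genes) or an unadjusted p of 0.05 (6.88%), with a median of -0.25, which was -0.42 without the first 7aaRAE sample and -0.086 without the second.

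Between 7aaRGD and 7aaRAE in U87-MG gliomas, no member differed at an adjusted p under 0.05 (0% of all genes) or an unadjusted p under 0.05 (3.38%), 5 of 45 were above 0 (48.4%), and the median was -0.20. Rsad2 differed by -0.9997 (95% interval -2.68 to 0.68), Oasl1 by -0.70 (-1.95 to 0.55) and Ifit1 by -0.68 (-1.84 to 0.49). The intervals of the members lay between -2.68 and 1.15, and those of 24 of 45 members lay within a change of 1 on the log2 scale in either direction and those of the other 21 reached beyond it. Without the first 7aaRAE sample, the median was 0.063 and 37 members were above 0. The SD within groups of the mean level of the members, on the log2(RPKM + 1) scale, was 0.457 in this experiment, against 0.154 in GL261 gliomas at 21 DPI and 0.144 at 28 DPI.

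**Figure D5:**
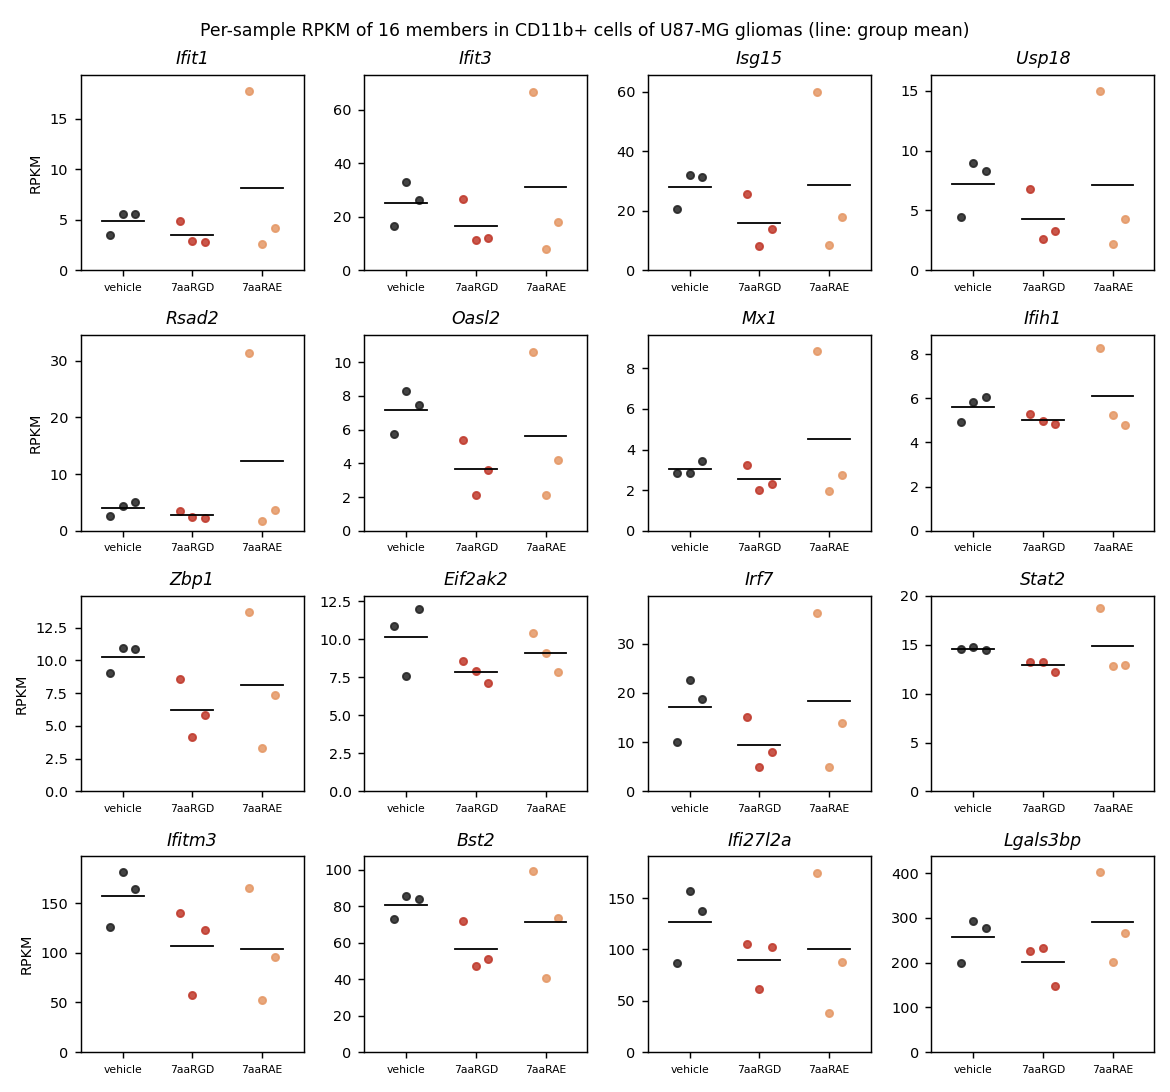
RPKM (y axes, from 0) of 16 members in each sample of the U87-MG experiment (points), by group, with the group mean as a line. In Rsad2 the first 7aaRAE sample stands at 31.4 RPKM and every other sample at 5.14 RPKM or less.

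The levels in U87-MG gliomas were the lowest of the 3 tumor experiments, with Isg15 at 27.9 ± 6.4995 RPKM (mean ± SD, n = 3) with vehicle beside 532 ± 81.1 RPKM (n = 3) in GL261 gliomas at 21 DPI and 72.5 ± 13.4 RPKM (n = 4) at 28 DPI. Rsad2 had 4.01 ± 1.347 RPKM beside 70.0 ± 11.1 RPKM and 12.1 ± 3.11 RPKM. Ifi44 went the other way, with 14.7 ± 6.54 RPKM beside 5.17 ± 0.876 RPKM and 2.28 ± 0.571 RPKM. These tables were normalized separately and the experiments differ in mouse strain, tumor and day, so these cannot be told apart.

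The genes upstream of the members were measured in the same samples. The 21 ligand genes listed were near 0, with no type I interferon gene above 1 RPKM in any sample. Ifna4 was listed at 0 or at most 0.00493 RPKM, and Ifnb1, the interferon made first by sensing cells, was at most 0.275 RPKM in GL261 gliomas at 21 DPI, 0.569 RPKM at 28 DPI and 0.984 RPKM in U87-MG gliomas. Ifng, the type II interferon made by T and NK cells, reached 2.84 RPKM. The receptor genes were measurable in naïve brains and changed little. Ifnar1 rose from 21.1 to 29.7 RPKM in group mean between naïve and vehicle (log2 difference 0.47, SE 0.05) and Ifnar2 fell from 61.6 to 50.7 RPKM (-0.27, SE 0.05). Of the 7 receptor and kinase genes 3 rose (Ifnar1, Tyk2 and Jak2) and 3 fell (Ifnar2, Jak1 and Ifngr1). Of all 9729 genes in this comparison, 8061 were called in either direction and 34.6% were called higher, so these counts do not set the receptor and kinase genes apart.

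At 28 DPI, Socs1, the feedback inhibitor of the kinases, rose with anti-PD-1 from 9.17 to 19.7 RPKM in group mean (1.08, SE 0.28, adjusted p = 0.0136). Ifngr1, a subunit of the receptor for interferon-gamma, fell from 181 to 113 RPKM (-0.66, SE 0.13, adjusted p = 0.00314).

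Genes best known as targets of interferon-gamma moved with the members. Of 17 such genes tested, 17 rose between naïve and vehicle, 14 with anti-PD-1 and 16 with the combination, and 0 with either peptide alone in GL261 gliomas. Of 61 other interferon-stimulated genes tested, 60 rose between naïve and vehicle, 41 with anti-PD-1 and 45 with the combination, where Lgals9 fell. Of all genes, 34.6% were called higher between naïve and vehicle, 10.8% with anti-PD-1, 17.5% with the combination and at most 0.138% with a peptide alone. Gbp2, a GTPase induced by both interferon types, had group means of 134 RPKM with vehicle, 322 RPKM with anti-PD-1 (1.28, SE 0.21, adjusted p = 0.00109) and 395 RPKM with the combination (1.53, SE 0.21) at 28 DPI. The response to type I interferon and that to interferon-gamma share many targets, and in these data they cannot be told apart. Of the 11 sensor and adaptor genes tested, 5 rose and Tlr7 fell with anti-PD-1 (-0.73, SE 0.20, adjusted p = 0.0178 by limma). In that comparison 2246 of 9738 genes were called in either direction, 1055 of them higher.

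As a description, the members with the response element in the promoter window had a median log2 difference of 4.07 between naïve and vehicle (21 members) and those matched without it 2.84 (14 members). With anti-PD-1 the medians were 0.70 and 0.55, and with the combination 0.74 and 0.65. The ranges overlap in each comparison, since Irf7, with the largest difference from naïve mice, has no match and Slfn8, with 1.42, has one.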

How the data were processed

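CD11b+ cells were sorted from naïve or tumor-bearing hemispheres and their mRNA was sequenced. According to the study's methods, Trimmomatic trimming and STAR alignment to mm10 preceded reverse-stranded counting per gene by the authors with HTSeq-count 0.11.1. The deposited tables hold normalized values that were read as RPKM plus a constant of 2. After subtraction, value times exonic kilobases summed to between 987501 and 1006618 in every sample, so the samples of a table shared nearly the same total. Between 3.13% and 8.78% of values per sample were under the constant and were set to 0. Sequencing depth is unknown, and no counts were used.

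Differences on log2(RPKM + 1) were tested within each table with limma 3.58.1 (R 4.3.3, trend and empirical Bayes, Benjamini-Hochberg, threshold 0.05) over protein-coding genes, plus the member Mx2, whose mean RPKM in the fitted groups was 1 or more, and the fit was tested on simulated data. Vehicle and naïve mice were fitted apart from the peptide groups, and the 4 groups at 28 DPI together. "Unadjusted p" and intervals come from the same fits. The members and lists were chosen with earlier results of these data known. Named members were 16 fixed by role and the up to 10 largest past the threshold, or the 3 largest where none passed. Alternatives were other pseudocounts, filters and scaling, a replicate block, and leaving out each sample. Some pathway genes are not reported here.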

Additional observations from a re-analysis of the deposited data

Results flagged for a closer look

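Ifit1 in the vehicle group at 28 DPI had 1 sample apart from the others. Sample 2 was at 7.50 RPKM and the other 3 at 11.3 to 11.999 RPKM, a gap larger than Dixon's 95% critical value for 4 samples. Of 34 groups of 4 samples examined, for the named members and the mean of all members, 1 was marked, and chance marks about 1 in 20. These groups share samples, so they are not separate looks.

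Bst2 moved in opposite directions with 7aaRGD in the 2 tumors. Its log2 difference from vehicle was 0.32 in GL261 gliomas, where every 7aaRGD sample was above every vehicle sample, and -0.53 in U87-MG gliomas, where every 7aaRGD sample was below every vehicle sample. The difference between the tumors was not tested, since the tables were normalized separately, and neither difference passed the adjusted threshold. It was the only one of 45 members compared that was apart in both. The share of all genes apart in both was not counted, so this does not set Bst2 apart from other genes. In U87-MG gliomas the nearest samples were 71.8 RPKM with 7aaRGD and 73.1 RPKM with vehicle.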

How the results depend on the processing

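Of 445 values of the summaries (members called, medians and the promoter share) under the alternatives, 438 moved by less than the spread between samples or, for counts, by at most 1.5 times. Such small moves changed the sign of the median without 1 sample in 4 comparisons, from -0.086 to 0.099 for 7aaRGD against 7aaRAE in GL261 gliomas, from -0.13 to 0.04 for the interaction, and in U87-MG gliomas from -0.44 to 0.15 for 7aaRAE against vehicle and from -0.50 to 0.063 for 7aaRGD against 7aaRAE. Scaling by the median of ratios turned that of the first to -0.019 and that of the interaction to 0.018. The median between naïve and vehicle, 3.59 as reported, was 4.44 with a pseudocount of 0.1, 2.51 with 5, 3.90 over the 44 members with a mean of at least 5 RPKM, 3.72 after scaling by the median of ratios, and 3.48 to 3.69 without 1 sample. The median of the combination against anti-PD-1 was 0.019 to 0.24 without 1 sample. A run of 3 repeats in place of 2 was in 11.4% of the member promoters. Some directions turned on 1 7aaRAE sample. For Rsad2 in GL261 gliomas, 7aaRGD against 7aaRAE ran from -0.037 (without 7aaRAE sample 2) to 0.27. In U87-MG gliomas, Rsad2 with 7aaRAE ran from -0.45 (without 7aaRAE sample 1) to 1.33, and 7aaRGD against 7aaRAE ran from -1.72 to 0.062 in Rsad2, from -1.23 to 0.011 in Oasl1 and from -1.16 to 0.029 in Ifit1, with the value above 0 again without 7aaRAE sample 1. Ifit1 with anti-PD-1 had an adjusted p (limma) of 0.0816 with no filter on low values and 0.0642 to 0.0848 without vehicle sample 2 or anti-PD-1 sample 1 or 2. The called members numbered 28 to 39 with anti-PD-1 and 35 to 42 with the combination without 1 sample, and 28 and 37 with no filter, and the cause was not tested. Without combination sample 1, 22 members differed between the combination and 7aaRGD, of 32 as reported. The deviations of same-numbered samples had a correlation over 0.1 in 1 of 18 pairs in GL261 gliomas and in 3 of 19 at 28 DPI. The correlations ran from -0.77 to 0.12 and from -0.50 to 0.37. The deviations varied in only 7 of 8 and 9 of 10 possible directions. These values therefore cannot tell whether same-numbered samples are related. With the replicate number as a block, the called members numbered 35 with anti-PD-1 and 40 with the combination. No paired analysis was possible for U87-MG gliomas because the header gives the columns of a group no replicate number. Depth is unknown, so low members such as Ifi44 and Oas1g in naïve mice have no stated counting error.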
